A study of Homo sapiens with 6 samples.

Results

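Condensin is the ring-shaped motor that compacts chromosomes, and its 8 subunit genes were followed in RPE-1 cells depleted of the splicing factor SON. The members were the rows of the counts table named SMC2, SMC4, NCAPH, NCAPD2, NCAPG, NCAPH2, NCAPD3 and NCAPG2, which are 8 of its 58735 genes. All 8 had enough reads to be tested, with 1570 to 21699 counts per gene and library. RPE-1 is an immortalised human line from retinal pigment epithelium. The line used here carries CETN2 (labelled Cetn2) fused to GFP, which marks centrioles, and a PLK4 transgene driven by rtTA from a doxycycline-inducible promoter. In the siSON group (3 libraries) the cells received an siRNA against SON, and in the siControl group (3 libraries) a scramble siRNA. Both groups were given 1 µg/mL of doxycycline to switch PLK4 on, so no library comes from uninduced cells, and whether the line is a single clone is not given in the sources used here.

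As background, vertebrate cells hold a pair of condensin complexes built on the same core. SMC2 and SMC4 are the ATPase arms common to both. A kleisin subunit closes the ring (NCAPH in condensin I, NCAPH2 in condensin II), and a D and a G subunit made of HEAT repeats bind it (NCAPD2 and NCAPG in condensin I, NCAPD3 and NCAPG2 in condensin II). Condensin II is nuclear throughout the cell cycle and starts compaction in prophase, whereas condensin I reaches the chromosomes after the nuclear envelope breaks down. SON is a nuclear speckle protein needed for efficient splicing of many pre-mRNAs.

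The libraries held 54572365 to 69764836 counts. SON itself fell to 22.8% of its siControl level (log2 fold change -2.14, SE 0.057, edgeR adjusted p 6.78e-10). It shares 307 bp of exon with DONSON and 275 bp with GART, both on the other strand. PLK4 had 177 CPM in siControl and 138.3 CPM in siSON (log2 fold change -0.36, edgeR adjusted p 0.0143), a value of -0.22 without siSON replicate 1, -0.55 with library size alone and -0.66 by cyclic loess. CETN2 rose by 0.38 on the log2 scale (edgeR adjusted p 5.89e-05), a value that was 0.19 with library size alone and -0.03 under cyclic loess normalization. Reads given to PLK4 and CETN2 may include those of the transgene and of the GFP fusion, which counts per gene cannot tell apart. CPM stands for counts scaled to a common library total, with trimmed-mean (TMM) factors. Replicate 1 stood apart in each group: its counts differed from those of the other replicates with a chi-square of 18.3 to 26.1 for each degree of freedom, against 7.16 and 7.18 between replicates 2 and 3. Of the retinal pigment epithelium markers, TYR and TTR were at 0 in all libraries and RPE65 averaged 0.144 CPM in siControl. OTX2 (19.9 CPM) and MITF (21.7 CPM) were read in siControl. The list also holds the epithelial keratins KRT8 (594 CPM in siControl, 754 in siSON) and KRT18 (220 and 615 CPM). The 12 markers summed to 817.6 to 915.5 CPM in siControl and 1414 to 1472 CPM in siSON, mostly from these keratins. Of the 8 tested, 5 were higher and 3 lower at an edgeR adjusted p under 0.05, beside 35.2% and 36.5% of all genes tested. The higher ones were OTX2, MITF, BEST1, KRT8 and KRT18 (0.82, 0.52, 0.62, 0.34 and 1.48 on the log2 scale), with BEST1 at 8.13 CPM in siControl. The lower ones were LRAT, PMEL and SERPINF1 (-2.62, -3.36 and -1.29 on the log2 scale), from 0.433, 2.065 and 0.877 CPM in siControl. The 10 markers of other cell types summed to 141.9 to 154.3 CPM in siControl and 32.57 to 46.33 CPM in siSON. Nearly all of that level came from COL1A1 (141.6 CPM in siControl). All 4 tested were lower at an edgeR adjusted p under 0.05, beside 36.5% of all genes tested. PTPRC, PECAM1 and COL1A2, the others tested, were read at only 1.44, 1.14 and 2.2 CPM in siControl. The part of either list in the condensin values was not tested. Nothing in the sources used here says that the replicates were separate cultures, so p-values measure the spread between these libraries, which may be technical.

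Condensin subunit mRNAs did not move as a block after SON depletion. Of the 8 genes, 5 fell (SMC2, SMC4, NCAPG, NCAPD3 and NCAPH2), 2 rose (NCAPH and NCAPD2) and NCAPG2 did not pass the test. A gene was called when its adjusted p in edgeR's quasi-likelihood test was under 0.05. By that rule 71.7% of the 16591 genes tested were called, 36.5% lower and 35.2% higher, so 7 calls among 8 genes is a share not far from that of any expressed genes. The split over all genes was 5834 higher and 6054 lower, and 4441 and 7351 when scaled by library size alone. It was 6044 higher and 5640 lower under cyclic loess normalization, and 5814 and 5969 without siSON replicate 1. The calls among members and in the gene lists below are to be read beside these splits. The groups of CPM values did not overlap for 7 of the 8 members, beside 75.1% of all genes tested, and 5 of the 8 did so with siSON lower, beside 38.2% of all genes tested. In bulk RNA, fewer cells expressing a gene and less of its RNA per cell cannot be told apart. The changes were moderate: the 8 log2 fold changes lay between -0.80 and 0.35 with a median of -0.30, and the quartiles of all genes tested were -0.82 and 0.52 with a median of -0.03. The 2 rises depended on the scaling, since under library size alone no member was called higher and 5 were called lower, and under cyclic loess normalization 1 was called higher and 6 lower. Without siSON replicate 1 there were 2 higher and 4 lower.

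**Figure D1:**
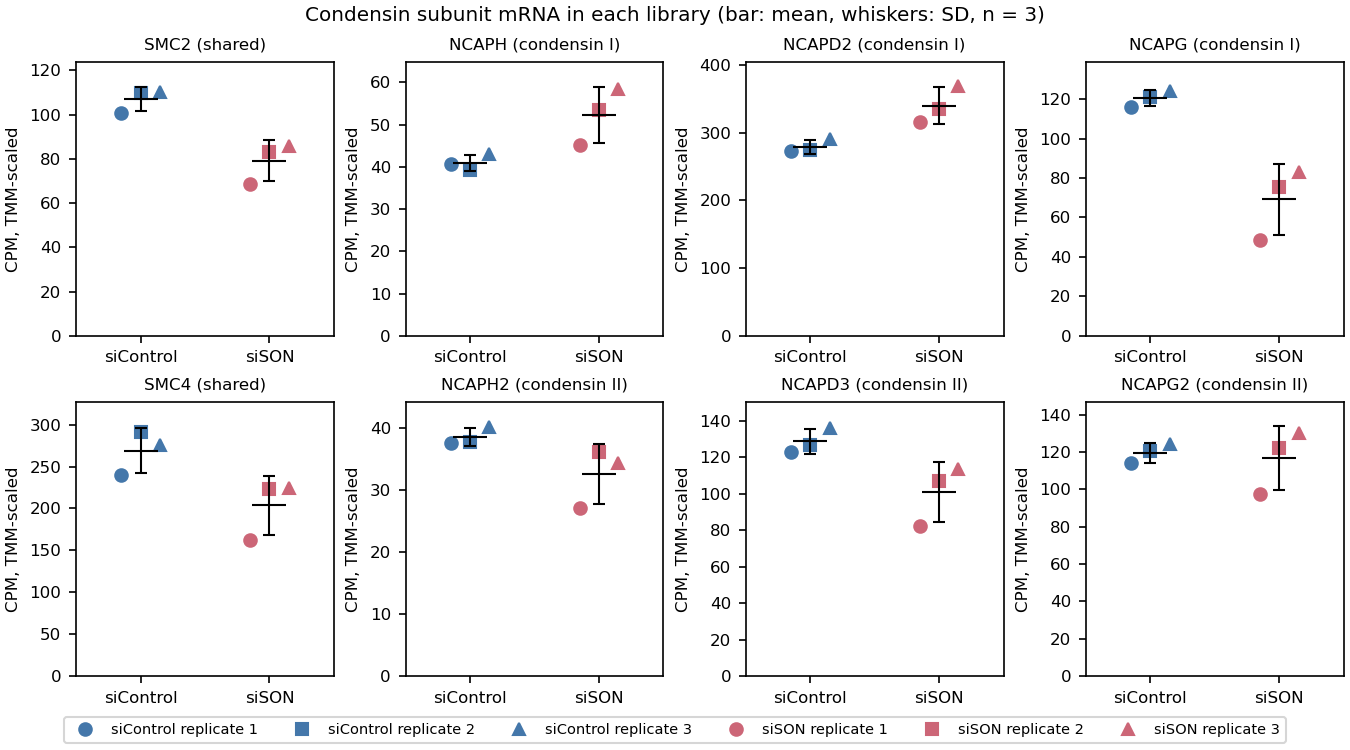
TMM-scaled counts (CPM) of each condensin subunit in the 3 siControl (blue) and 3 siSON (red) libraries, with marker shape giving the replicate number and black bars the mean and SD (n = 3). All siSON libraries lie above all siControl libraries for NCAPH and NCAPD2, below them for 5 genes, and across them for NCAPG2, and siSON replicate 1 is the lowest siSON library in all 8 panels.

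Promoter letters are shown because genes of G2 and mitosis are known for a CHR element (TTTGAA), bound by the MuvB complexes, and for CCAAT boxes (CCAAT), bound by NF-Y, and S-phase genes for E2F sites (TTTCCCGC, TTTGGCGC or TTTCGCGC). The RefSeq table of GRCh38.p14 held 7 of the 8 members, in 10 windows, and NCAPH2 had no entry and was not searched. The 250 bases before each start were searched on both strands. The CHR letters were in 3 of the 10 windows (NCAPG, SMC4 and NCAPD2), beside 13.3% of all 35116 windows of that length. In SMC4 they were in the window of the first start, and window 2 held no match to any of the letters. CCAAT was in 3 of 10 (NCAPH, NCAPD2 with 4 matches, and NCAPD3), beside 32.0%, and an E2F match in 1 of 10 (NCAPD3), beside 2.32%. A match is a description and not a site shown to be used. Capitals mark the match in these 30-base stretches, read 5′ to 3′ on the strand of the gene, around the CHR letters (on the reverse strand in SMC4) and around the CCAAT match nearest to the second start of NCAPD3 (on the reverse strand).
NCAPG, chr4:17810932-17810961: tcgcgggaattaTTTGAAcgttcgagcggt
SMC4, chr3:160399563-160399592: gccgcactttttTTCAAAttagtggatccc
NCAPD2, chr12:6493945-6493974: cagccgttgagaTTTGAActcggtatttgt
NCAPD3, chr11:134223995-134224024: ctgtacgttgtgATTGGtccacaggaacga

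The match began 35 bases before the RefSeq start in NCAPG, 75 in SMC4, 145 in NCAPD2 and 45 in NCAPD3. All 4 of these stretches lie inside the GENCODE 29 span of the gene, whose outermost start is further upstream than the RefSeq start used. The genes with the CHR letters had log2 fold changes of -0.80 (NCAPG), -0.40 (SMC4) and 0.28 (NCAPD2), the last of which was 0.09 with library size alone and -0.07 by cyclic loess. NCAPH, the member that rose most, had neither CHR nor E2F letters in this window, and its single CCAAT match began 112 bases before the start. Its 250 bases upstream, with CCAAT in capitals, lie outside the GENCODE 29 span of NCAPH.
NCAPH, chr2:96335516-96335765, plus strand: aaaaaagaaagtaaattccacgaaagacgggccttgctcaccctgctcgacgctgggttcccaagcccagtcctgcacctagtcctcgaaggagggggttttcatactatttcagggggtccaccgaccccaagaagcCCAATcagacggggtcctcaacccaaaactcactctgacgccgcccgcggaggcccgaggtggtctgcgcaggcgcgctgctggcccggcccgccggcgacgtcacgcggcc

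Both subunits of the shared core fell. SMC2, the first ATPase arm, was read at 100.6, 109.8 and 110.2 CPM in the controls (replicates 1 to 3) and at 68.5, 83.2 and 86.0 CPM after SON depletion (replicates 1 to 3, the order used throughout). Every siSON library was below every siControl library, and replicate 1 was the lowest of each group. The means were 107 ± 5.44 CPM and 79.2 ± 9.42 CPM (SD, n = 3 each), which left 74.1% of the siControl level (a log2 fold change of -0.43, SE 0.083, edgeR adjusted p 0.000654).

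SMC4, the partner arm, had 239, 292 and 275.5 CPM in siControl and 163, 223.5 and 224.4 CPM in siSON, again with no overlap and with replicate 1 lowest in both groups. Means of 269 ± 26.9 and 204 ± 35.3 CPM (SD, n = 3 each) made this a fall to 75.7% (log2 fold change -0.40, SE 0.124, edgeR adjusted p 0.0162). Without siSON replicate 1 the fall of SMC4 was -0.25 (edgeR adjusted p 0.00905), and under cyclic loess normalization it was -0.74. The SMC2 value under cyclic loess was -0.67. SMC4 shares 1561 bp of exon with TRIM59 and 607 bp with IFT80, both on the other strand, and since the strand setting of the counting is not given in the sources used here, reads from such shared stretches cannot be told apart. The ratio of SMC4 to SMC2 in a library, per kilobase of exon, was 0.94 ± 0.08 on the log2 scale in siControl and 0.97 ± 0.092 in siSON (SD, n = 3 each). That difference of 0.03 (SE 0.07) was smaller than the spread between replicates (2-sided exact permutation p 0.8), and this pair was compared after its values were seen.

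Within condensin I the 3 subunits went in different directions. NCAPH, its kleisin, had 40.6, 39.1 and 42.9 CPM in siControl and 45.1, 53.4 and 58.3 CPM in siSON. The lowest siSON library was only a little above the highest siControl library, and the other siSON libraries were well clear of it. NCAPH rose to 128% of the siControl level (40.9 ± 1.92 against 52.3 ± 6.66 CPM, SD, n = 3 each). On the log2 scale this was 0.35 (SE 0.089, edgeR adjusted p 0.00409). With library size alone it was 0.16 (edgeR adjusted p 0.149), and 0.23 under cyclic loess normalization.

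NCAPD2, the D subunit, had 272.5, 273.8 and 290.4 CPM in siControl and 315, 335 and 369 CPM in siSON, so the groups did not overlap and their relative spread was the narrowest among the 8 genes in siSON. It rose to 122% of the siControl level (279 ± 9.98 against 339.6 ± 27.3 CPM, SD, n = 3 each). On the log2 scale this was 0.28 (SE 0.062, edgeR adjusted p 0.00161). The rise was 0.09 (edgeR adjusted p 0.239) with library size alone, and its sign turned to -0.07 (limma adjusted p 0.278) under cyclic loess normalization. NCAPD2 shares 486 bp of exon with MRPL51 on the other strand, a gene with 9469 to 12719 counts per library.

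NCAPG, the G subunit, was the member that fell furthest. It had 116, 121 and 124 CPM in siControl, a tight group, and 48.7, 75.7 and 82.9 CPM in siSON, where replicate 1 lay well below the other libraries. The means were 120.5 ± 4.13 and 69.1 ± 18.03 CPM (SD, n = 3 each), which left 57.4% (log2 fold change -0.80, SE 0.163, edgeR adjusted p 0.00171). Without siSON replicate 1 the fall was -0.59 (edgeR adjusted p 1.78e-06), and with no filter on low counts it was -0.80 with an adjusted p of 0.051. NCAPG shares 1631 bp of exon with LCORL on the other strand, which had 496 to 951 counts per library.

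In condensin II no subunit was called higher. NCAPH2, its kleisin, had 37.65, 37.8 and 40.2 CPM in siControl and 27.05, 36.1 and 34.4 CPM in siSON. The groups did not overlap, but siSON replicates 2 and 3 were close below the controls and replicate 1 was further down. The level went to 84.4% (38.5 ± 1.45 against 32.5 ± 4.83 CPM, SD, n = 3 each), or -0.25 on the log2 scale (SE 0.099, edgeR adjusted p 0.0444). This call was lost without siSON replicate 1 (-0.11, edgeR adjusted p 0.151), siSON replicate 3 (-0.28, adjusted p 0.0503), siControl replicate 2 (-0.28, adjusted p 0.0621) or siControl replicate 3 (-0.22, adjusted p 0.119). With library size alone the value was -0.44.

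NCAPD3, the D subunit of condensin II, had 123, 127 and 136 CPM in siControl and 82.2, 107 and 113 CPM in siSON, with no overlap. It fell to 78.5% (129 ± 6.80 against 101 ± 16.5 CPM, SD, n = 3 each), or -0.35 on the log2 scale (SE 0.104, edgeR adjusted p 0.0116). Without siSON replicate 1 it was -0.21 (edgeR adjusted p 0.00778), with library size alone -0.55, and under cyclic loess normalization -0.62. NCAPD3 shares 465 bp of exon with JAM3 and 249 bp with VPS26B, both on the other strand.

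NCAPG2, the G subunit of condensin II, had 114, 121 and 124 CPM in siControl and 97.5, 122 and 130.5 CPM in siSON. The siSON libraries lay on both sides of the controls. The means were 119.6 ± 5.20 and 117 ± 17.2 CPM (SD, n = 3 each), and the log2 fold change of -0.03 (SE 0.094, edgeR adjusted p 0.755) was smaller than its error. The value was 0.09 without siSON replicate 1 and -0.30 (limma adjusted p 0.0115) under cyclic loess normalization.

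**Figure D2:**
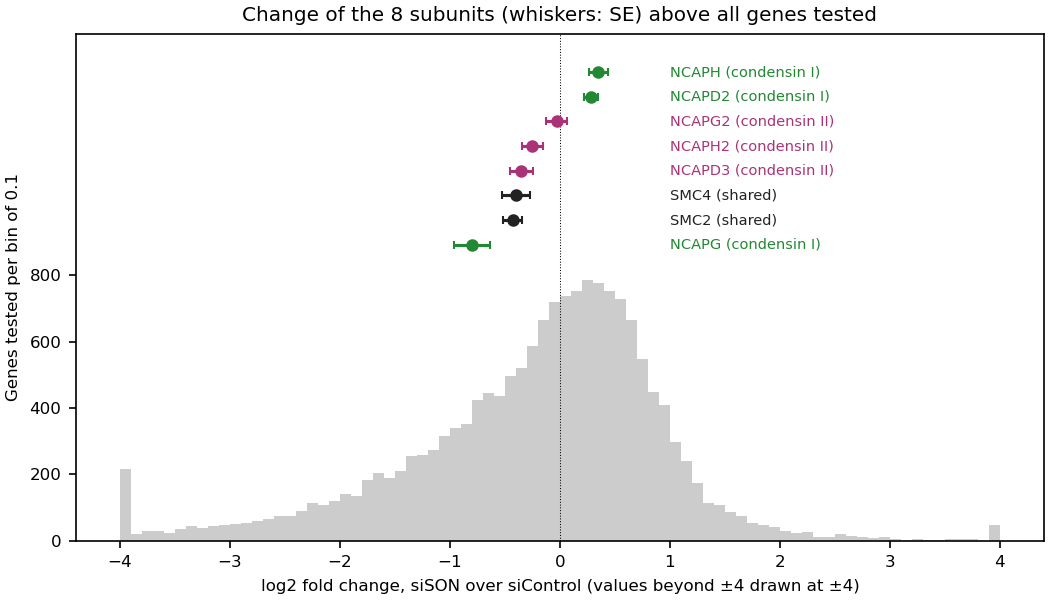
Log2 fold changes (siSON over siControl) of the 8 subunits with SE whiskers, drawn above a histogram of all 16591 genes tested, with black for the shared core, green for condensin I and purple for condensin II. The subunits span -0.80 (NCAPG) to 0.35 (NCAPH), inside the broad range of all genes, and the condensin I subunits stand at both ends.

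Each condensin I subunit has a condensin II counterpart, and the ratio of the counterparts within a library is the same under any scaling by 1 factor per library; cyclic loess normalization, which depends on level, is not of that kind. In siSON the kleisin and D ratios were lower, on the side of condensin I, and the G ratio was higher, on the side of condensin II. The log2 ratio of NCAPH2 to NCAPH, per kilobase of exon, was -0.056, 0.003 and -0.041 in siControl and -0.685, -0.511 and -0.706 in siSON. All siSON libraries were below all siControl libraries, and the difference was -0.60 (SE 0.064).

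For NCAPD3 over NCAPD2 the log2 ratios were -1.638, -1.603 and -1.583 in siControl and -2.428, -2.135 and -2.193 in siSON, a difference of -0.64 (SE 0.091) with no overlap. For NCAPG2 over NCAPG they were -0.532, -0.509 and -0.507 in siControl and 0.495, 0.188 and 0.148 in siSON, a difference of 0.79 (SE 0.11) in the opposite direction and again with no overlap. The 2-sided exact permutation test gave p = 0.1 for each of the 3 pairs, the smallest it can give with 3 libraries against 3, and 0.1 after adjustment over the 3 pairs. The control ratios were narrow, with SDs of 0.03, 0.028 and 0.014 on the log2 scale. Without siSON replicate 1, which had the largest change for the D and G pairs, the differences were -0.58, -0.56 and 0.68 in the order kleisin, D, G.

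**Figure D3:**
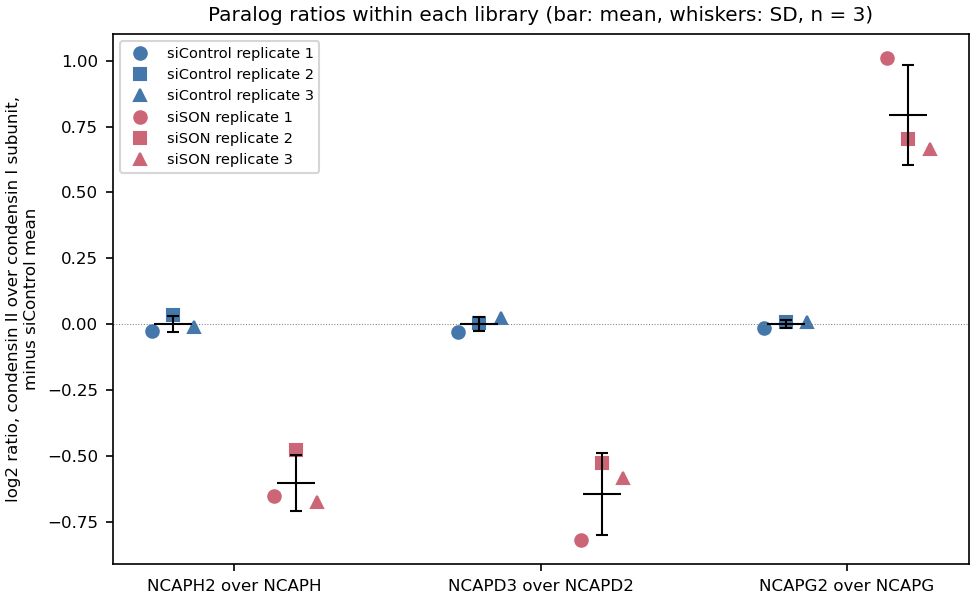
Log2 ratio of each condensin II subunit to its condensin I counterpart in each library, with the siControl mean of the pair set to 0 (blue, siControl; red, siSON; bars, mean and SD, n = 3). NCAPH2 over NCAPH and NCAPD3 over NCAPD2 differ by -0.60 and -0.64 on the log2 scale and NCAPG2 over NCAPG by 0.79, with no overlap between groups in any pair.

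Levels were compared between subunits as CPM per kilobase of annotated exon. In siControl the order was NCAPD2 (43.0), SMC4 (31.8), NCAPG (24.5), NCAPG2 (17.1), SMC2 (16.5), NCAPD3 (14.1), NCAPH (12.5) and NCAPH2 (12.2), all in CPM per kilobase. NCAPG2 overlapped SMC2 and NCAPH overlapped NCAPH2 over the 3 libraries, and the other neighbours were apart. In siSON NCAPD2 (52.4) and SMC4 (24.1) stayed first and second, and from NCAPG2 (16.7) through NCAPH (15.95), NCAPG (14.05), SMC2 (12.25), NCAPD3 (11.1) and NCAPH2 (10.3) each neighbour overlapped the next. Thus NCAPG went from the third to the fifth place, within a stretch of overlapping values.

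This order depended on the length used. Over the longest coding transcript in place of all annotated exons, a choice added after seeing the data, siControl SMC4 (49.1 CPM per kilobase) overlapped NCAPD2 (50.3) and NCAPH came last (13.9), while NCAPG went from rank 3 (25.8) to rank 7 (14.8) in siSON. The condensin I share of the kleisin pair was 50.5% ± 0.528 in siControl and 60.8% ± 1.78 in siSON over annotated exons, and 42.7% and 53.1% over the longest transcript (SD, n = 3 each). The share of the D pair went from 75.3% to 82.6% and that of the G pair from 58.8% to 45.2% over annotated exons. Over the longest transcript the D share went from 66.4% to 75.5% and the G share from 53.2% to 39.6%. Set against SMC2, of which each complex holds the same number, the summed kleisins NCAPH and NCAPH2 per kilobase were 1.5 ± 0.0802 times SMC2 in siControl and 2.14 ± 0.0274 times in siSON. The summed D subunits were 3.46 ± 0.138 and 5.19 ± 0.256 times SMC2, and the summed G subunits 2.52 ± 0.0499 and 2.5 ± 0.216 times (SD, n = 3 each). With the longest transcript as length, the mean sums over SMC2 in siControl and siSON were 1.82 and 2.52 (kleisins), 4.25 and 6.15 (D), and 2.73 and 2.79 (G). These sums, chosen after the values were seen, are of mRNA reads and were not tested.

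The siSON libraries differed more among themselves than the controls for every subunit. The coefficient of variation was 3.43% to 10% in siControl and 8.04% (NCAPD2) to 26.1% (NCAPG) in siSON, beside medians of 7.57% and 9.35% over all genes tested. SiSON replicate 1 was the lowest siSON library for all 8 members, which held for 37.9% of all genes tested. Replicate 1 was also the lowest siControl library for every member but NCAPH, by less. The median deviation of the members from their group mean of log2 CPM was -0.058, -0.007 and 0.057 in siControl. In siSON it was -0.252, 0.089 and 0.161. SON itself was 67.96 CPM in that library, between the 65.0 and 69.96 CPM of the other siSON libraries. The summed level of 25 genes of G2 and mitosis was 2250 CPM in siSON replicate 1 and 2862 and 2949 CPM in the other siSON libraries. In siControl it was 2479, 2682 and 2680 CPM (replicates 1 to 3). The summed level of 20 S-phase genes was 973.9 CPM in siSON replicate 1 and 1253 and 1309 CPM in the other siSON libraries. In siControl it was 2089, 2108 and 2213 CPM (replicates 1 to 3). The part of these cell-cycle levels in the condensin values was not tested.

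The genes around condensin were read from the same fit. Among 14 partners of condensin or of chromosome structure, 6 rose and 3 fell, with a median log2 fold change of 0.10, so that 64.3% were called beside 71.7% of all genes tested; the counts were 5 and 5 with library size alone, 5 and 6 by cyclic loess. TOP2B, a DNA topoisomerase of the interphase nucleus, had the smallest adjusted p and rose by 0.90 (SE 0.049, edgeR adjusted p 3.74e-08), and CSNK2A1, a catalytic subunit of casein kinase 2, rose by 0.55 (adjusted p 1.18e-06). PPP2CA, the catalytic subunit of the phosphatase PP2A, rose by 0.42 (adjusted p 4.43e-05). By cyclic loess TOP2B, CSNK2A1 and PPP2CA were at 0.58, 0.27 and 0.16, and with library size alone CSNK2A1 and PPP2CA were at 0.35 and 0.23. TOP2A, the mitotic topoisomerase that works beside condensin, had a log2 fold change of -0.21 (adjusted p 0.0577) and did not pass the test; it was chosen after its values were seen.

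Cohesin is the related ring that holds sister chromatids together. Of the 8 core cohesin genes tested 1 rose and 1 fell, beside 71.7% called among all genes tested. Among those not called, STAG3, RAD21L1 and REC8 were read at only 0.152, 1.65 and 2.06 CPM in siControl. The core gene that was not tested, the meiotic SMC1B, was at 0 in all libraries. SMC1A fell by 1.63 on the log2 scale to 32.4% of the siControl level (SE 0.108, edgeR adjusted p 3.17e-07). Its partner arm SMC3 rose by 0.23 (adjusted p 0.00107), but its value was 0.03 with library size alone, and cyclic loess normalization turned it to -0.08. STAG1, a cohesin subunit that binds the kleisin, had a value of 0.09 (adjusted p 0.159), with -0.10 and -0.03 under those scalings. It shares 1664 bp of exon with PCCB on the other strand, which had 1455 to 2229 counts per library. Without siSON replicate 1, 3 core cohesin genes were called higher and 1 lower, while library size alone gave 0 and 1, and cyclic loess 1 and 3. Thus the SMC arms of cohesin had log2 fold changes of opposite sign, whereas those of condensin were -0.43 and -0.40.

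Of 12 cohesin regulators, 4 rose and 2 fell, which is 50% called beside 71.7% of all genes tested. MAU2, which with NIPBL loads cohesin onto DNA, rose by 1.18 (SE 0.06, edgeR adjusted p 2.06e-08), WAPL, which releases cohesin, by 0.82 (adjusted p 4.82e-07), and PDS5A, which binds cohesin with WAPL, by 0.65 (adjusted p 4.43e-07; 0.38 by cyclic loess). Scaling by library size alone gave 4 in each direction and cyclic loess 5 in each. In the SMC5/6 complex, the third SMC ring of the nucleus, 4 of 9 genes rose and 4 fell, with a median of -0.31 (2 and 5 by library size alone), beside 35.2% higher and 36.5% lower among all genes tested. NSMCE4A, its kleisin, fell by 1.06 (SE 0.103, edgeR adjusted p 3.15e-06), while NSMCE2, a SUMO ligase, and NSMCE1, a RING subunit, rose by 0.85 and 0.80 (adjusted p 6.24e-06 and 1.35e-05).

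Condensin compacts chromosomes in mitosis, so both cell-cycle lists were set beside its subunits. Of the 25 G2 and mitosis genes, 10 rose and 6 fell (median log2 fold change 0.05), or 64% called beside 71.7% of all genes tested, a split that became 5 and 10 with library size alone, and cyclic loess normalization gave 6 and 11. KIF20A, a kinesin of late mitosis, fell by 1.01 (edgeR adjusted p 2.60e-05), and TPX2, a spindle assembly factor, and BIRC5, a subunit of the chromosomal passenger complex, rose by 0.52 and 0.54 (adjusted p 4.54e-05 and 0.000111). The values of TPX2 and BIRC5 were 0.33 and 0.34 with library size alone and 0.18 and 0.25 by cyclic loess. Of the 20 S-phase genes, 18 fell and 0 rose, with a median of -0.77, beside 36.5% of all genes tested called lower. CCNE2, an E-type cyclin, fell by 4.49 (edgeR adjusted p 1.86e-08), CDC45, a subunit of the replicative helicase, by 2.86 (adjusted p 3.37e-09) and UHRF1, a hemimethylated-DNA reader, by 1.53 (adjusted p 2.38e-07). CCNE2 shares 1629 bp of exon with INTS8 on the other strand. The median of the condensin subunits, -0.30, lay between those of the cell-cycle lists.

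**Figure D4:**
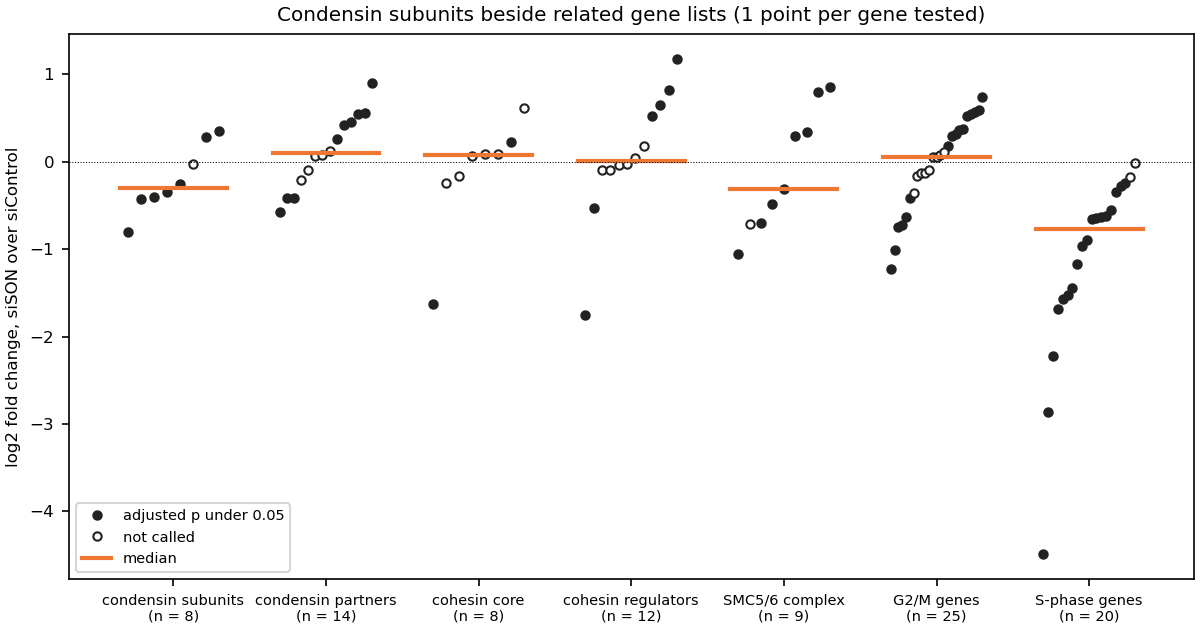
Log2 fold changes (siSON over siControl) of the condensin subunits and of 6 related lists, with 1 point per gene tested, filled where the edgeR adjusted p is under 0.05, and an orange line at each median. The condensin subunits lie between -0.80 and 0.35, while SMC1A (-1.63) stands alone below the cohesin core and the S-phase genes reach -4.49 with a median of -0.77.

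The genes whose library profiles were most like those of the extreme members were found among 10874 protein-coding genes. Likeness was the root mean square difference of log2 CPM, centred on the siControl mean, over the 6 libraries. Nearest to NCAPH were DIAPH1 (0.036), ANKRD13A (0.036) and TRERF1 (0.046), whose values were 0.36, 0.34 and 0.34 on the log2 scale, 0.16, 0.14 and 0.15 with library size alone, and 0.04, 0.02 and 0.19 by cyclic loess. No test is given, because these genes were chosen for their likeness over the same libraries. Nearest to NCAPG were MASTL (0.058), KIFC1 (0.061) and KIAA1841 (0.063), whose own values were -0.88, -0.76 and -0.82 on the log2 scale. MASTL shares 443 bp of exon with YME1L1 on the other strand, which had 12097 to 17175 counts per library.

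SON acts in splicing, so the architecture of the 8 genes was described from GENCODE 29 on GRCh38. All 8 were rich in exons, with 18 (NCAPH) to 35 (NCAPD3) in the longest coding transcript, which put them at percentiles 80.8 to 96.7 of the protein-coding genes tested, whose median was 9. NCAPH2 (chromosome 22, 50508216 to 50523472, plus strand) had the shortest introns, with a median of 134 bp (percentile 2.0), and the highest GC content in its transcript, 62.2% (percentile 90.2). NCAPD2 (chromosome 12, 6493356 to 6531955, plus strand) followed with a median intron of 299 bp (percentile 9.8) and held the shortest single intron, 71 bp (percentile 1.1). The other 6 had median introns of 832 bp (NCAPD3) to 1816 bp (NCAPG2), and all 8 were below the median of 1869 bp over protein-coding genes tested.

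The pair with the shortest introns had log2 fold changes of -0.25 (NCAPH2) and 0.28 (NCAPD2), but by cyclic loess both were negative (-0.32 and -0.07). NCAPG (chromosome 4, 17810902 to 17844862, plus strand), which fell furthest, had a median intron of 1114.5 bp, close to the 1198 bp of NCAPH (chromosome 2, 96335787 to 96373845, plus strand), which rose most. SMC2 (chromosome 9, 104094260 to 104141417, plus strand), SMC4 (chromosome 3, 160399274 to 160434962, plus strand) and NCAPG had the lowest GC content, 37.6%, 37.25% and 39.0%. NCAPD3 (chromosome 11, 134150119 to 134225454) and NCAPG2 (chromosome 7, 158631311 to 158704829) lie on the minus strand and had 47.6% and 41.4%. Any link of intron length or GC content to the changes was not tested. Retained introns cannot be seen in gene counts.

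**Figure D5:**
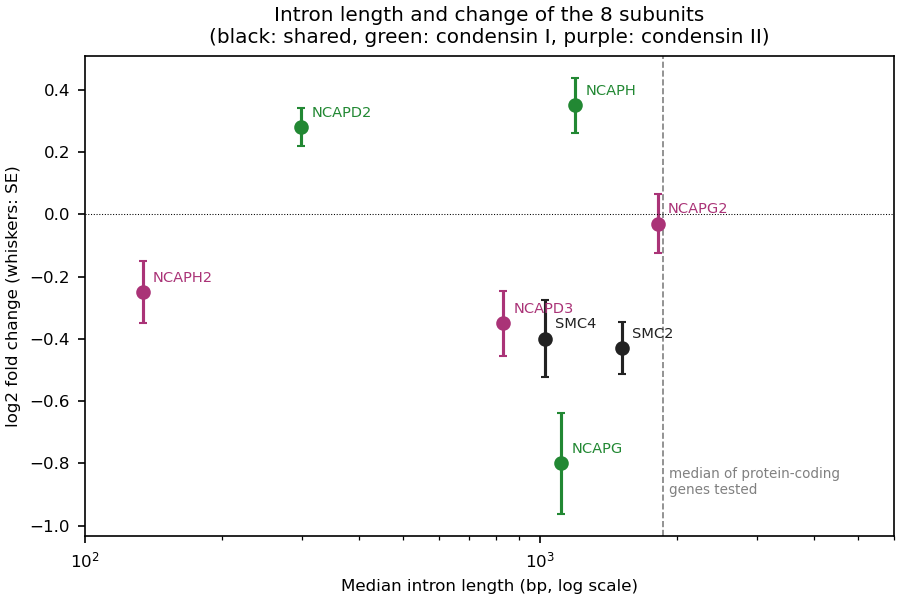
Median intron length of the longest coding transcript (bp, log axis) against the log2 fold change with its SE for the 8 subunits (black, shared core; green, condensin I; purple, condensin II), with a dashed line at the median of protein-coding genes tested, 1869 bp. NCAPH2 and NCAPD2, with the shortest introns, lie on opposite sides of 0 (both are negative by cyclic loess, at -0.32 and -0.07), as do NCAPG and NCAPH, whose introns are alike in length. A link of intron length to the changes was not tested.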

How the data were processed

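RNA-seq of 6 libraries (3 siControl, 3 siSON) was analysed from whole-number read counts per gene that the authors deposited, not normalized, 1 column per library. The submitters' processing notes name cutadapt 1.16, STAR 2.5.2a, featureCounts 1.6.2, DESeq2 1.28.1 and the build hg38, and the annotation, strand and multi-mapping settings are not given in the sources used here. All 58735 identifiers matched GENCODE 29. Genes were kept with filterByExpr (minimum count 10), scaled by TMM and compared by group alone with edgeR 4.0.16 (robust quasi-likelihood, R 4.3.3), checked on simulated counts. P-values were adjusted by Benjamini-Hochberg over all 16591 genes tested, with 0.05 as threshold, and the SE is the absolute log2 fold change over the square root of F. All fold changes are siSON over siControl. Alternatives were RLE, upper quartile and library size scaling, cyclic loess and voom with limma 3.58.1, DESeq2 1.42.0, other filters on low counts, a replicate block and each library left out. A level of 3 counts was 0.0402 to 0.059 CPM (counting error only).

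The members and gene lists were chosen with earlier results of these data known. Named genes are the 8 members, SON, PLK4, CETN2 and the 3 genes of smallest adjusted p in each list. Also named are the 3 genes most like the member of highest and of lowest fold change (mean log2 CPM at least 1). TOP2A, SMC1B, cell type markers and genes that overlap a named gene are named outside this rule. So are STAG3, RAD21L1, REC8, ESCO2 and ESPL1, which were chosen after their values were seen. Of the 10 markers of other cell types, CD3E and MYH7 were at 0 in all libraries.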

Additional observations from a re-analysis of the deposited data

How the results depend on the processing

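The number of changed genes (11888) ranged from 10226 (mean count of at least 50) to 12604 (no filter), and from 11153 to 11783 when 1 library was left out. The 7 condensin calls were 5 with library size alone, 6 with no filter and 6 or 7 when 1 library was left out. Library size alone shifted all log2 fold changes by a median of -0.20 and cyclic loess by 0.14, while cyclic loess lowered all 8 members (SMC4 to -0.74, NCAPG to -1.06, NCAPG2 to -0.30). The reversals among members were NCAPD2 under cyclic loess (-0.07) and NCAPG2, which over the single omissions ranged from -0.11 (without siSON replicate 3) to 0.09 (without siSON replicate 1) and was 0.02 without replicate 1 of both groups, an omission chosen after seeing the data. The other reversals were CETN2 (-0.03), SMC3 (-0.08) and STAG1 (-0.03) under cyclic loess, and STAG1 (-0.10) with library size alone. The cause was not tested. The 2 core cohesin calls were 1 with library size alone, 4 under cyclic loess and 2 to 4 when 1 library was left out, and the 6 calls among cohesin regulators were 10 under cyclic loess. The paralog ratio differences ranged over the single omissions from -0.66 to -0.57 (kleisin), -0.70 to -0.56 (D) and 0.68 to 0.86 (G). Replicate numbers are shared by the groups, and the main fit did not take them as pairs. Deviations of same-numbered libraries correlated at 0.195, 0.0463 and 0.119, and each library correlated best with its own number. With the replicate block 12313 genes and 7 members were called, and the SE of every member was smaller. It was 0.05 against 0.124 for SMC4 and 0.114 against 0.163 for NCAPG. For NCAPH2 the edgeR adjusted p was 0.01 with the block against 0.0444. The ratio differences with the block were -0.60, -0.64 and 0.79 (exact sign-flip p 0.25, the smallest possible).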
